A study of Drosophila melanogaster with 9 samples.

Results

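The comparison set Drosophila embryos with raised Jun N-terminal kinase (JNK) signalling against embryos with reduced JNK signalling, across all genes of an Affymetrix array. It used 6 of the 9 arrays of the study, chosen by the genotype in their labels: 3 labelled JNK GOF and 3 labelled JNK LOF. The 3 WT arrays were kept out of the difference and its error, and their levels are given only for orientation. A gene was 1 probe set, the one with the highest mean over the 9 arrays, and 10844 genes were compared.

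GOF embryos had the genotype w;UAS-hepACT/+;69B/+, an activated form of the kinase Hemipterous (Hep) placed under the driver 69B-GAL4, which is active in the embryonic ectoderm. LOF embryos were y w heprev75/y w hep1, a combination of 2 mutant alleles of hep. WT embryos carried w. All groups therefore carried w, and the LOF embryos carried y as well. The sources used here do not say which share of the embryos in a collection had the named genotype. No sex is listed for any sample, so a difference in sex between the groups cannot be told apart from the genotype. Eggs were laid over 2 h and kept at 25 °C until, after about 9 h, the embryos had reached stages 13 to 14. Whole dechorionated embryos were used, and a collection was kept if in situ hybridisation for dpp placed over 85% of its embryos at those stages. Each array carried a separate RNA preparation, labelled from 2 µg of total RNA.

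JNK signalling runs as a chain of kinases: upstream kinases activate Hep, Hep activates the JNK Basket, and Basket phosphorylates the AP-1 transcription factors Jra and Kay. In the fly embryo it is known for dorsal closure, in which the epidermis of both flanks stretches over the amnioserosa, an extraembryonic sheet, and fuses along the dorsal midline. The leading row of epidermal cells has high JNK activity and there transcribes puc, a phosphatase gene that feeds back on JNK, and dpp, a BMP ligand gene.

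The deposited values are linear intensities, and differences below are GOF minus LOF on the log2(value + 1) scale with their standard error (SE), tested with limma over all genes. A gene was called at an adjusted p under 0.05. How the values were returned to a linear scale is not described in the labels: the highest intensity has a base-2 logarithm of 20.34 and a natural logarithm of 14.1, and 239 probe sets passed 65535, the ceiling of a 16-bit scan. If base e was used in that step, each log2 difference is to be multiplied by 0.693, so folds are given under both readings, while directions and calls are the same. The medians of the 6 arrays lay between 688 and 709. Across genes, arrays correlated at 0.992 to 0.996 within GOF, at 0.996 to 0.997 within LOF and at 0.959 to 0.970 between GOF and LOF.

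Of the 10844 genes, 1889 (17.4%) were called higher in GOF than in LOF and 2067 (19.1%) lower, together 36.5%. Higher genes thus made up 47.8% of the calls, against 59.9% after cyclic loess scaling of the 6 arrays (2149 higher, 1439 lower), so which direction held more calls was not stable. It also turned without GOF replicate 2 (1701 higher, 1648 lower), LOF replicate 1 (1699 and 1625) or LOF replicate 3 (1760 and 1743), and did not turn after quantile normalization (47.4% higher). The rises were larger than the falls. The median difference was 0.88 among higher genes and -0.55 among lower genes, with -0.077 over all genes. At least 2-fold differences were called for 811 higher and 250 lower genes (381 and 54 under base e), and 8-fold ones for 32 higher genes and 1 lower gene, CG14756. The 3 GOF arrays all lay above the 3 LOF arrays for 1878 of the 1889 higher genes, and all below them for 2042 of the 2067 lower genes. Calls grew with the level of a gene: of the 2711 genes with the lowest mean intensity 5.61% were higher and 4.87% lower, and of the 2711 with the highest mean 31.2% went each way.

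**Figure D1:**
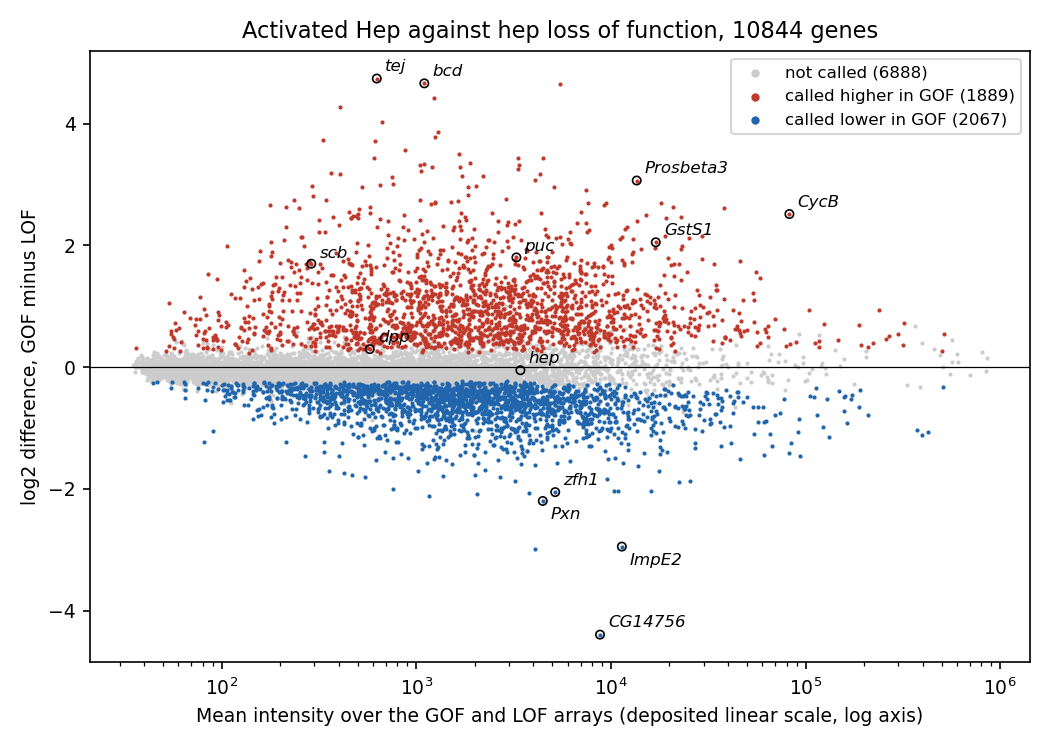
Log2 difference, GOF minus LOF, of each of 10844 genes (vertical) against its mean intensity over the 6 arrays (horizontal, log axis), with called higher genes in red, called lower genes in blue and genes not called in grey. Circled genes are named in the text, and the red points reach further from 0 than the blue ones, with tej at 4.74 and CG14756 at -4.40.

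The genotypes act on the JNK pathway, so its genes were examined before others. hep, the manipulated gene, read 3403, 3625 and 3099 in GOF, against 3315, 3515 and 3653 in LOF, and the groups overlapped (difference -0.052, SE 0.092, adjusted p = 0.709). Its other probe set read 1077, 1323 and 481 in GOF, against 937, 1408 and 954 in LOF. The positions of both sets against the transgene and the allelic lesions are not stated in the labels, so the hep signal is no check of the genotypes. The body colour gene y, mutant in LOF, read 1068, 952 and 1002 in GOF, against 867, 1139 and 849 in LOF, also with overlapping groups. w was not analysed here.

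puc separated the groups most clearly among the JNK genes. It read 6435, 5278 and 6712 in GOF, against 1739, 1813 and 1704 in LOF, a difference of 1.80 (SE 0.11, adjusted p = 6.94e-06), which is 3.49-fold higher, or 2.38-fold under base e. scb, an integrin alpha subunit gene known as a JNK target, read 569, 386 and 646 in GOF, against 147, 167 and 167 in LOF, a difference of 1.70 (SE 0.18, adjusted p = 0.000119) (3.24-fold higher, or 2.26-fold under base e). For both genes each GOF array lay above each LOF array by more than the range within either group on the log2 scale. dpp moved far less: it read 626, 619 and 676 in GOF, against 514, 513 and 537 in LOF, a difference of 0.30 (SE 0.081, adjusted p = 0.0199). The dpp groups did not overlap, but its call was lost without GOF replicate 3 or LOF replicates 1 or 2, with an adjusted p of up to 0.066.

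scaf, which encodes an inactive protease homologue and was singled out by the study on these samples, gave a different answer on each of its 2 probe sets. The brighter set read 6334, 6828 and 6049 in GOF, against 5649, 5647 and 5647 in LOF (difference 0.18, SE 0.083, adjusted p = 0.13) and was not called, although its groups did not overlap. The dimmer set read 1767, 2117 and 2778 in GOF, against 1032, 1142 and 995 in LOF, a difference of 1.05 (SE 0.16, adjusted p over probe sets 0.00102). The groups were apart on both sets, and the test was passed on the dimmer one alone.

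Of 18 measured JNK targets known from other work, 5 were higher (27.8%, against 17.4% of all genes) and 3 lower (16.7%, against 19.1%), with a median difference of 0.21. The higher count was 3 without LOF replicate 1 and 9 after cyclic loess. Besides puc, scb and dpp, the higher ones were ena, an actin filament elongation factor gene (0.78), and Rab30, a vesicle traffic GTPase gene (0.62). The call of ena was lost without LOF replicate 1 or 3. The lower ones were cher, the filamin gene (-1.25), raw, a gene known to restrain JNK signalling (-0.60), and chic, the profilin gene (-0.35). cher read 5768, 7141 and 9575 in GOF, against 19454, 17673 and 15555 in LOF and its groups were far apart, whereas those of chic overlapped and its call was lost under 7 alternatives. The call of raw rested on the brighter of its probe sets. Uncalled targets included mys, the main integrin beta subunit gene (0.24), the matrix protease gene Mmp2 (-0.078) and the Z-disc gene Zasp52 (0.036). Members of the 2 JNK lists beyond the naming rule were chosen after their values were seen.

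Of 28 measured cascade genes, 8 were higher (28.6%, against 17.4% of all genes) and 11 lower (39.3%, against 19.1%). The median difference was -0.22. These shares of all genes, 17.4% higher and 19.1% lower, are the background for each list count below. Among the kinases, the largest rise was in lic, which encodes the kinase that activates p38. It read 10554, 11015 and 14914 in GOF, against 4450, 4209 and 3720 in LOF, a difference of 1.55 (SE 0.14, adjusted p = 6.29e-05). wnd, an upstream kinase gene of the axon-damage branch, read 4359, 4582 and 2483 in GOF, against 1304, 1619 and 1393 in LOF (1.36), and mbt, a PAK family kinase gene, read 23554, 28354 and 24252 in GOF, against 14789, 15690 and 15478 in LOF (0.72). The other JNK-activating kinase and JNK were not called: bsk, the JNK gene itself, read 4682, 3791 and 5874 in GOF, against 7132, 6034 and 5523 in LOF (-0.40, adjusted p = 0.0942), and Mkk4, which encodes the other JNK-activating kinase, differed by -0.35 (adjusted p = 0.067). The upstream kinase genes slpr (-0.59) and Ask1 (-0.79) were lower in GOF than in LOF.

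Ligand, receptor and adaptor genes of the cascade were lower in 6 of 9 cases. egr, the TNF ligand gene, read 588, 629 and 577 in GOF, against 837, 889 and 1036 in LOF (-0.62, SE 0.10, adjusted p = 0.00146). wgn, one of its receptors, read 486, 705 and 447 in GOF, against 1156, 941 and 1150 in LOF (-1.01, SE 0.17, adjusted p = 0.00175), whereas grnd, the other receptor, rose by 0.51. The adaptor genes split in the same way, with Traf6 higher by 0.61 and Traf4 (-0.74), POSH (-0.57), Aplip1 (-0.55) and Tab2 (-0.41) lower. The call of Traf4 rested on the brighter of its probe sets. Among the transcription factors, Jra, the Jun gene, read 3530, 2747 and 3540 in GOF, against 1473, 1448 and 1785 in LOF, a difference of 1.06 (SE 0.13, adjusted p = 0.000307), while kay, the Fos gene, read 229, 210 and 177 in GOF, against 180, 197 and 185 in LOF with overlapping groups (0.12, adjusted p = 0.422). Jra was called and kay was not, and the difference between these AP-1 partners was not tested.

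**Figure D2:**
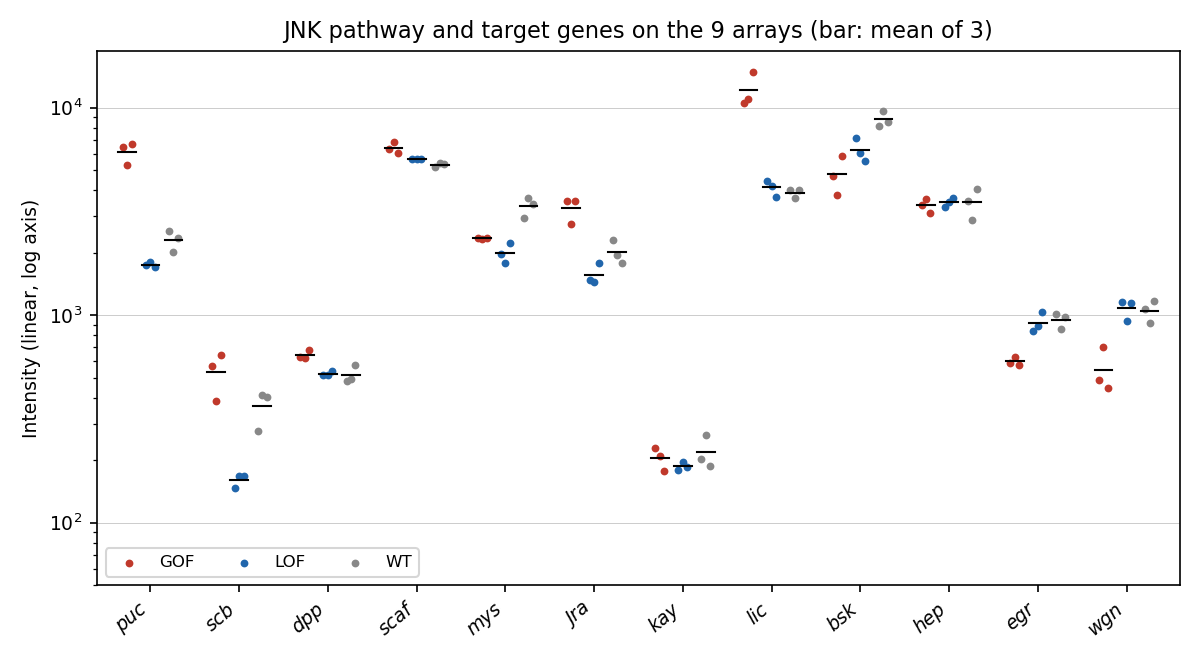
Intensity (log axis) of 12 JNK pathway and target genes on each array, with GOF in red, LOF in blue and WT in grey, and a bar at the mean of 3. puc, scb, Jra and lic lie higher on all 3 GOF arrays than on the LOF arrays, egr and wgn lie lower, and the groups overlap for hep, kay and bsk.

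The 5 largest rises were in tej, bcd, CG15098, CG4880 and rpk. tej, a piRNA pathway gene whose product carries Tudor and LOTUS domains, read 2515, 2773 and 4908 in GOF, against 132, 124 and 107 in LOF, a difference of 4.74 (SE 0.23, adjusted p = 2.23e-06) (26.7-fold higher, or 9.75-fold under base e). bcd, the anterior determinant whose RNA is laid down in the egg, read 1905, 9406 and 9490 in GOF, against 324, 235 and 136 in LOF (4.66, SE 0.59, adjusted p = 0.00035). Its lowest GOF array still lay above all LOF arrays, but the spread within GOF was wide. rpk, an ion channel subunit gene of the DEG/ENaC family, read 1922, 1681 and 1750 in GOF, against 109, 93 and 76 in LOF (4.27, SE 0.13, adjusted p = 5.88e-07). The rises of tej, bcd and rpk were from levels near the lower end of the intensity range. twe, the Cdc25 phosphatase gene of meiosis, read 3677, 5724 and 5707 in GOF, against 344, 353 and 321 in LOF (3.86, SE 0.17, adjusted p = 1.52e-06). pim, the securin gene that holds back separation of sister chromatids, read 4174, 4172 and 5622 in GOF, against 436, 314 and 274 in LOF (3.78, SE 0.18, adjusted p = 2.33e-06). tej, bcd, rpk, twe and pim stayed at or below 436 in LOF and at or above 1681 in GOF.

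Further large rises were in ftz-f1, a nuclear receptor gene (3.73), STUB1, a chaperone-linked ubiquitin ligase gene (3.72), and nxf2, an RNA export factor relative of the piRNA pathway (3.49). swa, a gene of bcd RNA localisation, rose by 3.44 on its brighter probe set. Its other set, which read 74 to 109 on the 6 arrays, was not called. dah, a gene of blastoderm cellularisation, read 14642, 12510 and 17300 in GOF, against 1371, 1331 and 1371 in LOF (3.43, SE 0.12, adjusted p = 5.99e-07). msd1, a subunit gene of the spindle complex augmin, rose by 3.36. Of the genes known only by a number, CG15098 read 28466, 30256 and 24364 in GOF, against 1321, 1062 and 934 in LOF (4.65, SE 0.14, adjusted p = 5.88e-07) and CG4880 read 5100, 5163 and 7137 in GOF, against 256, 248 and 299 in LOF (4.42, SE 0.14, adjusted p = 5.88e-07).

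Beside CG15098, the higher genes with the smallest p were CG4586 (3.32), mre11, a gene of DNA break repair (2.69), and tef, a gene of chromosome pairing in male meiosis (2.98). mre11 read 2925, 3135 and 3003 in GOF, against 462, 452 and 492 in LOF, and its groups were tight as well as far apart.

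The largest fall was in CG14756, which read 1538, 2110 and 2170 in GOF, against 37011, 39033 and 45486 in LOF, a difference of -4.40 (SE 0.15, adjusted p = 5.95e-07) (21-fold lower, or 8.26-fold under base e). No role is given for it here. ImpE2, a gene known for its response to ecdysone in imaginal discs, read 2494, 4012 and 6879 in GOF, against 34780, 32302 and 28217 in LOF (-2.95, SE 0.31, adjusted p = 0.00012). drl, a receptor gene for a Wnt ligand, read 705, 888 and 4824 in GOF, against 11236, 10349 and 13080 in LOF (-2.99, SE 0.61, adjusted p = 0.0046), so that GOF replicate 3 stood well apart from the other GOF arrays and nearer to LOF. Falls in genes of blood cells, mesoderm and trachea had tighter groups. Pxn, which encodes the matrix enzyme peroxidasin of hemocytes, read 1723, 2144 and 2451 in GOF, against 8963, 9125 and 10739 in LOF (-2.20, SE 0.14, adjusted p = 8.89e-06). zfh1, a zinc-finger homeodomain gene of mesoderm and hemocytes, read 2928, 2518 and 2223 in GOF, against 10754, 10790 and 10123 in LOF (-2.05, SE 0.11, adjusted p = 3.99e-06). vvl, a POU-domain gene of the tracheal system, read 1865, 1709 and 1979 in GOF, against 7171, 8616 and 7541 in LOF (-2.07, SE 0.10, adjusted p = 2.46e-06).

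Further falls of similar size were in Con, a cell adhesion gene of nerve and muscle (-2.12), peb, a zinc-finger gene of the amnioserosa that also acts on JNK signalling (-2.09), Papss, which makes the sulphate donor for matrix sugars (-2.03), and Imp, an RNA-binding protein gene (-2.03). Gasp, a chitin-binding gene of the tracheal lining, fell by 2.01 on the log2 scale. CG14110 (-2.03), l(1)G0320 (-1.88), Osi6 (-1.90) and CG13082 (-1.51), one of the lower genes with the smallest p, completed the set. peb read 713, 805 and 1689 in GOF, against 4185, 4405 and 4088 in LOF, Imp 6272, 6768 and 12029 in GOF, against 34434, 34440 and 29272 in LOF, and Osi6 8335, 7521 and 25288 in GOF, against 58540, 51217 and 27213 in LOF. For drl, peb, Imp, Gasp and Osi6 the highest GOF array was replicate 3 each time. The WT array numbered 3 was also the highest of its group for drl (1526, 1966 and 9138), peb (1553, 1483 and 3430) and Imp (10470, 13458 and 23820), and the lowest for Gasp and Osi6. All 5 genes were called, and the call of Osi6 was lost without LOF replicate 1 (adjusted p = 0.0531). Tissue counts and RNA per cell are not separated by these arrays: fewer cells that express a gene and less of its RNA in each cell cannot be told apart in whole embryos.

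**Figure D3:**
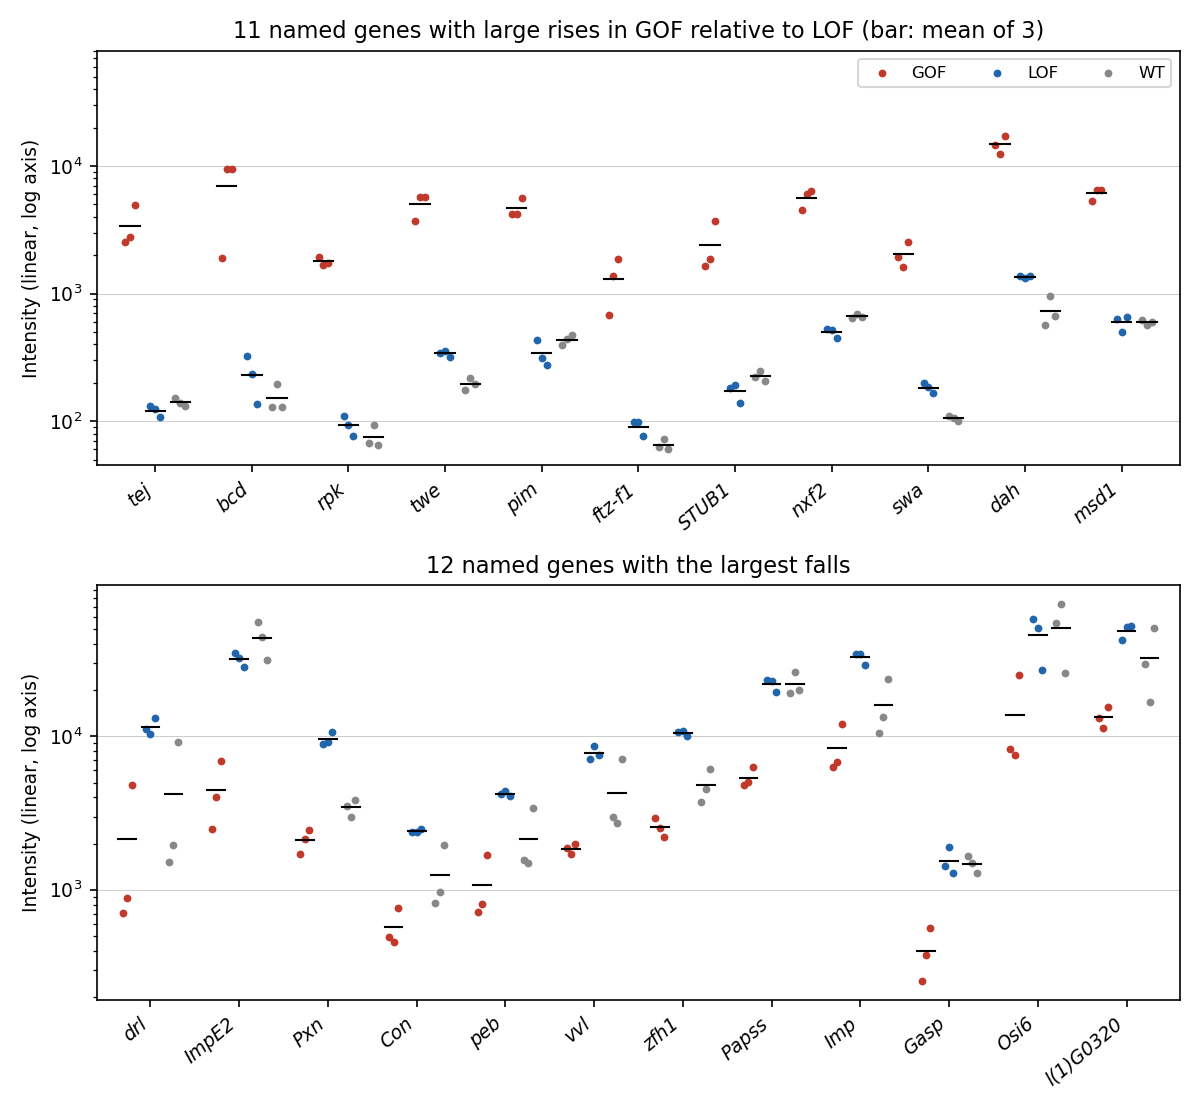
Intensity (log axis) on each array of 11 of the 12 genes with a given name that rose most (top) and of the 12 that fell most (bottom) in GOF relative to LOF, with GOF in red, LOF in blue, WT in grey and a bar at the mean of 3. For each gene all 3 GOF arrays lie beyond all 3 LOF arrays, and in drl, Imp and Osi6 the highest GOF point is replicate 3.

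Genes of the egg and the early embryo were described by 4 lists. Of 13 egg activation and maternal RNA decay genes, 9 were higher (69.2%) and 2 lower, with a median of 1.18, against -0.077 over all genes. smg, which directs decay of maternal messages, read 10412, 14359 and 14523 in GOF, against 1390, 1566 and 1356 in LOF (3.17, SE 0.14, adjusted p = 1.52e-06). plu, a subunit gene of the kinase that starts the egg's divisions, read 488, 609 and 535 in GOF, against 123, 118 and 126 in LOF (2.14), and sra, a calcineurin regulator gene needed at egg activation, 9003, 12198 and 11637 in GOF, against 2611, 2152 and 2787 in LOF (2.12). The lower ones were brat and gnu. Of 17 piRNA and germ-line genes, 11 were higher (64.7%) and 2 lower, with a median of 1.01. The higher count was 10 or 11 when 1 array was left out. It was 5 when the dimmest 40% of all genes were dropped, a filter that can also remove list members from the test. mael (2.38) and squ (2.51), both of the piRNA pathway, and zpg, the germ-line gap junction gene (1.29), rose, while vas, the helicase gene that marks germ cells, read 95, 109 and 118 in GOF, against 118, 97 and 106 in LOF and was not called.

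Of 20 maternal determinants, 9 were higher (45%) and 2 lower. The rises spanned all axes: besides bcd and swa at the anterior, cact, which holds back the dorsal factor Dorsal, read 42546, 54433 and 62884 in GOF, against 12545, 11635 and 12305 in LOF (2.11), ea, a protease gene of the same axis, rose by 1.40, and osk, the posterior determinant, read 217, 241 and 271 in GOF, against 124, 128 and 129 in LOF (0.93). Both lower genes of the list were posterior: of 7 posterior genes 2 were higher, 2 lower and 3 not called, with a median of -0.078. The median of all 20 determinants was 0.20, and the other 9 of them were not called. Of 21 blastoderm genes, 2 were higher and 12 lower (57.1%), with a median of -0.34, and 7 were lower after cyclic loess. The higher ones, dah and slam (1.67), both act in the formation of the first cell membranes. Patterning genes of the same list fell in 10 of 12 gap and pair-rule cases (6 after cyclic loess), among them opa (-1.16), and so did sna, the mesoderm determinant (-1.07).

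The summed intensity of the 5 measured markers of the maternal or unfertilised egg (bcd, osk, smg, png, twe) ran from 17349 to 31007 in GOF, against 2995 to 3461 in LOF. png, the defining kinase gene of egg activation in that list, read 1138, 1094 and 1016 in GOF, against 994, 1179 and 1053 in LOF and was not called. Germ-line markers summed to 5880 to 6338 in GOF, against 2582 to 2833 in LOF. Most of that sum was zpg, at 5507, 4748 and 4927 in GOF, against 1984, 1945 and 2305 in LOF. Blastoderm markers summed to 9807 to 12200 in GOF, against 7557 to 8212 in LOF. Of these 4 markers only slam was higher, at 4676, 7168 and 6341 in GOF, against 1858, 1976 and 1779 in LOF, and 1 was lower. The part of a difference in age or composition between the collections in these results was not tested.

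Of 33 cell cycle genes, 15 were higher (45.5%) and 8 lower (24.2%, against 19.1% of all genes). The lower count was 4 without LOF replicate 1 or after cyclic loess and 5 without LOF replicate 3, while the higher count was 15 under each of these. CycB, the mitotic cyclin gene, read 165125, 230477 and 202636 in GOF, against 37887, 32184 and 33922 in LOF (2.51, SE 0.13, adjusted p = 3.28e-06). mad2, a gene of the spindle checkpoint, read 12398, 13018 and 10377 in GOF, against 1464, 1324 and 1447 in LOF (3.07, SE 0.11, adjusted p = 5.95e-07). Mitotic regulators were higher in 5 of 9 cyclin and kinase genes, and in 6 of 9 genes of the anaphase-promoting complex and checkpoints, with pim and twe among them. Of 15 DNA replication genes 4 were higher and 6 lower, with a median of -0.18, and 3 were lower after cyclic loess.

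The proteasome degrades tagged proteins, with a proteolytic core and a regulatory particle at its ends. Of its 39 listed genes 13 were higher (33.3%) and 9 lower (23.1%), and the directions differed between the parts of the particle. All 12 core subunit genes were higher, with a median of 2.15 and a range from 0.65 to 3.07. Prosbeta3 read 35783, 38999 and 43438 in GOF, against 4866, 3909 and 5434 in LOF (3.07, SE 0.13, adjusted p = 1.52e-06, 8.37-fold higher, or 4.36-fold under base e). Prosbeta5, which carries a proteolytic site, read 39985, 40992 and 39276 in GOF, against 8806, 8628 and 9783 in LOF (2.15, SE 0.085, adjusted p = 1.1e-06), and Prosbeta7 read 41169, 45934 and 47010 in GOF, against 8910, 7337 and 8338 in LOF (2.45). In Prosbeta6 the brighter probe set rose by 2.61, and the dimmer set by 0.41 without a call.

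Of the 14 genes of the regulatory particle, which recognises and unfolds substrates, 7 were lower, with a median of -0.36. The exception was Rpt4, an ATPase subunit gene, which read 13140, 12827 and 16165 in GOF, against 5316, 4756 and 4705 in LOF (1.51). Of 13 paralogues whose names end in T or R, with or without a number, 2 were lower and the other 11 were not called. This split of the list by name was made after the values were seen. Leaving out any 1 of the 6 arrays kept all 12 core genes higher. With the lowest probe set of each gene, 10 of the 12 were.

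**Figure D4:**
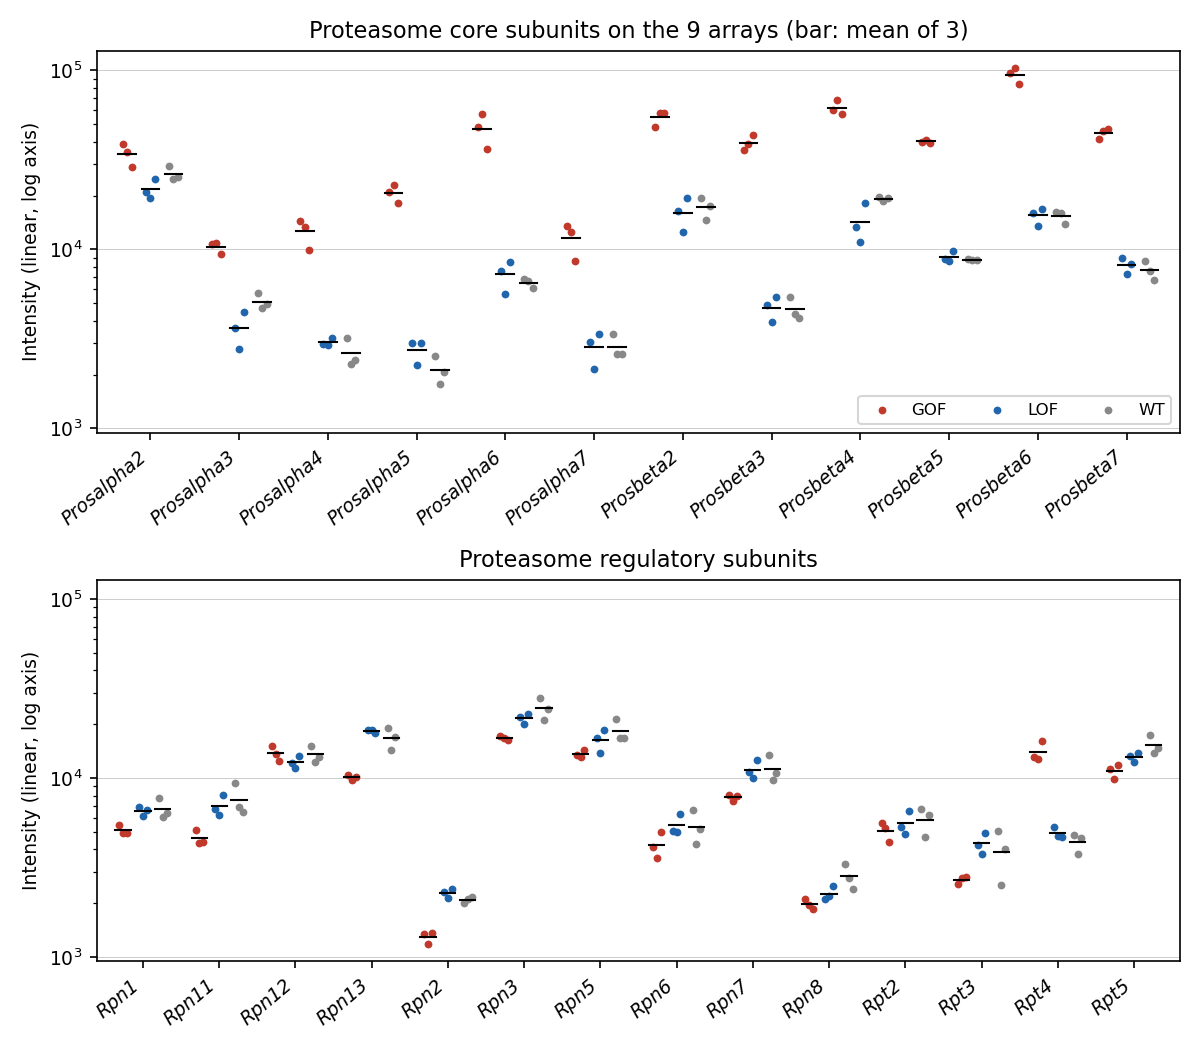
Intensity (log axis) of proteasome core subunit genes (top) and regulatory subunit genes (bottom) on each array, with GOF in red, LOF in blue, WT in grey and a bar at the mean of 3. All 12 core genes lie higher in GOF than in LOF, and of the regulatory genes only Rpt4 does so past the threshold.

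Glutathione S-transferases join glutathione to toxic compounds. Of 33 measured, 14 were higher (42.4%, against 17.4% of all genes) and 2 lower (6.06%, against 19.1%), with a median of 0.17. GstS1 read 30521, 36168 and 37597 in GOF, against 8367, 8944 and 7804 in LOF (2.05, SE 0.11, adjusted p = 3.2e-06), GstE7 rose by 1.96, GstO2 by 1.96 and GstE13 by 1.75. The rises came from the delta class (4 of 11), the epsilon class (6 of 14) and the other classes (4 of 8), with GstE12 and GstT4 lower. Many of these genes have close paralogues, and cross-hybridisation between them was not tested. Of 10 antioxidant genes, 3 were higher (30%, against 17.4% of all genes), namely Prx3, Trx2 and maf-S, or 1 without LOF replicate 2. The 1 lower gene (10%, against 19.1%) was cnc, the Nrf2 homologue, which fell by 0.57 on the log2 scale. The calls of Prx3, maf-S and cnc were each lost under at least 1 alternative.

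Of 9 heat shock and chaperone genes 8 were lower (88.9%), with a median of -0.43, and Hsp26 was not called. Hsp60A, the mitochondrial chaperonin gene, read 42048, 45539 and 46435 in GOF, against 89481, 85653 and 75020 in LOF (-0.90, SE 0.096, adjusted p = 0.000146). DnaJ-1 fell by 1.16 on the log2 scale, Hsp27 by 0.72 and Hsc70-4 by 0.39. Of 13 apoptosis genes, 5 were higher (38.5%) and 2 lower. Dronc, the initiator caspase gene, read 7316, 7885 and 6512 in GOF, against 2501, 1976 and 2752 in LOF (1.60, SE 0.13, adjusted p = 4.18e-05), p53 read 1241, 1127 and 1203 in GOF, against 605, 489 and 484 in LOF (1.18, SE 0.11, adjusted p = 6.16e-05), and Dcp-1, an effector caspase gene, rose by 0.58. The lower ones were egr and Debcl.

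Genes that shape the epidermis were described by several lists, whose counts differed. Of 19 segment polarity and denticle genes, 15 fell (78.9%, against 19.1% of all genes) and 2 rose, with a median of -0.80. en, the posterior compartment selector, read 1433, 1223 and 1134 in GOF, against 2778, 2742 and 2398 in LOF (-1.07, SE 0.11, adjusted p = 0.000126), hh, the secreted signal of the same cells, read 245, 219 and 255 in GOF, against 422, 421 and 431 in LOF (-0.83, SE 0.088, adjusted p = 0.000139), and mwh, which limits actin bundles in hairs, fell by 1.02 on the log2 scale. The exceptions were smo, the Hedgehog signal transducer gene (1.04), and sn, the fascin gene (0.92). Of 9 apical matrix genes of the zona pellucida family, 7 were lower and the others not called. mey (-1.30), neo (-0.85), dpy (-0.76) and pio (-0.74) led them.

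Of 18 septate junction genes, 11 were lower (61.1%) and 1 higher, with a median of -0.57. cora, a core component that links the junction to the membrane skeleton, read 9245, 7908 and 9993 in GOF, against 23510, 28068 and 21146 in LOF (-1.42, SE 0.13, adjusted p = 6.39e-05), and pck, a claudin gene, fell by 1.06 on the log2 scale. Nrg (-0.66) and bark (-0.74) were lower as well. The higher one was yrt, a polarity regulator (0.76). Of 16 polarity and adherens junction genes, 6 were higher (37.5%, against 17.4% of all genes) and 4 lower (25%, against 19.1%), and 2 were lower without LOF replicate 2. The difference between these 2 lists was not tested. aPKC read 4190, 4390 and 2979 in GOF, against 1330, 1413 and 1528 in LOF (1.42, SE 0.15, adjusted p = 0.000123), and its partner par-6 read 2493, 2239 and 2230 in GOF, against 1100, 989 and 956 in LOF (1.19, SE 0.093, adjusted p = 2.83e-05). cno, a junction scaffold gene, rose by 1.63, and scrib by 1.04 on its brighter probe set, while the other scrib set fell by 0.64 on the log2 scale.

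Of 36 chitin and cuticle genes, 3 were higher (8.33%, against 17.4% of all genes) and 10 lower (27.8%, against 19.1%). The higher ones were the chitinase-like growth factor genes Idgf6 (2.67), Idgf4 (0.94) and Idgf2 (0.74). Idgf6 read 19450, 25170 and 25438 in GOF, against 4274, 3304 and 3415 in LOF. Gasp, obst-A (-1.31) and verm, a chitin deacetylase gene of the tracheal lumen (-1.24), were among the lower ones, and 16 of 20 chitin-binding and structural genes were not called. Of 22 Osiris genes, a family of cuticle-forming epithelia, 7 were lower (31.8%, against 19.1% of all genes) and the other 15 not called. The Osiris median was -0.22. Without LOF replicate 1, 4 were lower. Osi7 read 1587, 1611 and 1883 in GOF, against 7855, 7152 and 4143 in LOF (-1.86), Osi15 differed by -1.38 and Osi20 by -0.65. Of 10 epidermal barrier and wound genes, 4 were lower (40%, against 19.1% of all genes) and 1 higher (10%, against 17.4%). grh, the barrier transcription factor gene, fell by 0.88 on the log2 scale. krz, the beta-arrestin gene, read 6704, 11843 and 12052 in GOF, against 2523, 1955 and 2121 in LOF (2.17).

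Most listed genes of tubular and secretory organs were lower too. Of 10 salivary gland genes, 9 were lower, with a median of -1.18, the lowest of the 44 lists. fkh, the organ's selector gene, read 2697, 2469 and 1838 in GOF, against 5374, 6290 and 6394 in LOF (-1.38, SE 0.15, adjusted p = 0.000143), sage, a transcription factor gene specific to the gland, fell by 1.14 on the log2 scale and PH4alphaSG2, its prolyl hydroxylase gene, by 1.23. Salivary markers summed to 2723 to 3778 in GOF, against 7578 to 8660 in LOF. Of 13 tracheal genes, 11 were lower and the others not called, with a median of -0.69. uif (-1.55) and Mipp1 (-0.95) fell beside vvl and verm. The 2 measured tracheal markers, btl and verm, summed to 51559 to 57820 in GOF, against 114678 to 150750 in LOF. Nearly all of that sum was verm, which alone read 57210, 55388 and 50998 in GOF, against 126127, 149848 and 113817 in LOF. Genes of the coats of secretory vesicles fell in 8 of 10 cases, with a median of -0.80: deltaCOP (-0.997), alphaCOP (-0.97), gammaCOP (-0.96) and Sec31 (-0.86).

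Basement membrane genes fell together. Of 11 matrix genes in the integrin list, 10 were lower and trol, the perlecan gene, was not called, with a median of -0.95. Ppn, papilin, read 34339, 39045 and 37503 in GOF, against 100849, 95603 and 105854 in LOF (-1.45, SE 0.089, adjusted p = 7.76e-06), and LanA, the laminin alpha chain gene, read 9215, 7603 and 9734 in GOF, against 17859, 17840 and 17104 in LOF (-0.999, SE 0.11, adjusted p = 0.00014). The adhesion side differed. Of the 8 receptor genes only scb was higher, with if and mew lower, and of 7 adaptors 3 were higher. stck, the PINCH gene of the integrin adhesion complex, read 6547, 5943 and 7188 in GOF, against 2828, 2716 and 2407 in LOF (1.31, SE 0.10, adjusted p = 3.19e-05), beside its partners Ilk (0.82) and parvin (0.51), while rhea, the talin gene, fell by 0.61 on the log2 scale. Of 17 actin and myosin genes, 6 were higher and 7 lower. fog, a secreted signal of cell constriction, rose by 1.25, while kst, a spectrin gene (-1.15), Actn, an actin crosslinker gene (-0.90), and Mhcl, a myosin-like gene (-1.40), fell. The call of Mhcl rested on its brighter probe set.

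Hemocytes, the blood cells, are the main makers of embryonic basement membrane. Of 21 hemocyte genes, 13 were lower (61.9%) and the other 8 not called, with a median of -0.46. Beside Pxn, zfh1 and Ppn, PPO2, a prophenoloxidase gene, read 10633, 9880 and 12377 in GOF, against 29337, 27491 and 30975 in LOF (-1.42, SE 0.11, adjusted p = 2.19e-05) on its brighter probe set. Its other set differed by -0.049. The 5 measured hemocyte markers summed to 12342 to 13545 in GOF, against 24093 to 26372 in LOF. srp, the blood GATA factor gene, fell by 1.004 on the log2 scale, but Hml and crq stayed near the bottom of the range in both groups. The part of the hemocyte markers in the matrix result was not tested.

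Of 16 amnioserosa genes, 9 were lower (56.2%) and the other 7 not called, with a median of -0.45. peb, grn (-1.11) and Doc3 (-0.64), all transcription factor genes, and LanA had the smallest p. Amnioserosa markers summed to 26497 to 28203 in GOF, against 33658 to 39111 in LOF. Of these markers Kr fell by 0.80 on the log2 scale, and Ance, a peptidase gene of that tissue, read 19245, 18778 and 17271 in GOF, against 21108, 24353 and 19279 in LOF (-0.22, adjusted p = 0.141).

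The nervous system was described by 3 lists. Of 17 neuroblast genes, 13 were lower (76.5%) and the other 4 not called, with a median of -0.66. pros, a fate determinant passed to daughter cells, read 5447, 5925 and 4000 in GOF, against 16825, 18136 and 19086 in LOF (-1.83, SE 0.14, adjusted p = 3.01e-05), and pon (-0.94), esg (-0.93) and nub fell. nub fell by 1.01 on the log2 scale on its brightest set only. Of 14 neuronal genes, 5 were lower and the other 9 not called. That count was 2 without LOF replicate 1, after cyclic loess or with the lowest probe set, and 3 without GOF replicate 3, without LOF replicate 3, with the replicate block or with the mean of probe sets. fne, an RNA-binding protein gene of neurons, read 5102, 5185 and 9448 in GOF, against 17194, 17133 and 18709 in LOF (-1.49), whereas elav, the pan-neuronal marker, read 5014, 4234 and 2073 in GOF, against 4098, 5109 and 4686 in LOF and was not called. brp (-0.51), Rim (-0.36) and ChAT (-0.30), genes of the synapse, were called with smaller differences, and each call was lost under at least 2 alternatives. Of 9 glial genes, 5 were lower and 1 higher, with repo, the glial master regulator (-0.72), gcm (-0.85), wrapper (-0.79) and ine (-1.001) among the lower ones.

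Of 21 muscle and mesoderm genes, 11 were lower (52.4%) and the other 10 not called, with a median of -0.44. kirre (-0.63) and rols (-0.91), both needed for myoblast fusion, and sls, the titin-like gene (-0.70), fell. Of the other 3 sls probe sets 1 was called lower, and the remaining ones differed by 0.090 and -0.0019. The count of lower genes was 4 after cyclic loess or without LOF replicate 1, 6 without LOF replicate 2, and 7 without GOF replicate 2 or LOF replicate 3. Mlc2, the measured muscle marker, read 11913, 14615 and 33704 in GOF, against 31101, 28312 and 31356 in LOF, with GOF replicate 3 at the LOF level. Of 15 gut and fat body genes, 11 were lower and 1 higher. Apoltp, a lipid transfer particle gene (-1.14), and bowl, a hindgut regulator (-1.16), fell, and LpR2, a lipoprotein receptor gene, read 552, 566 and 612 in GOF, against 290, 290 and 291 in LOF (0.99). The other LpR2 set differed by 0.31 and was not called. The 4 measured Hox genes were lower: Scr (-0.76), Dfd (-0.62), pb (-0.49) and Antp (-0.84), of which Antp lost its call under 7 alternatives.

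Signalling pathways differed from each other in their counts. Of 24 Dpp pathway genes, 12 were lower (50%) and 1 higher, with 3 higher after cyclic loess and 2 without GOF replicate 1. The higher one was Mad, the signal-transducing Smad gene, which read 2862, 2771 and 4453 in GOF, against 1633, 1279 and 1162 in LOF (1.29, SE 0.20, adjusted p = 0.000986). gbb, a BMP ligand gene (-0.69), and salm, a target gene (-1.59), fell. Of 12 EGF receptor pathway genes, 7 were lower and 2 higher. spi, the main ligand gene, read 11874, 12686 and 15113 in GOF, against 26360, 26253 and 21849 in LOF (-0.91), and Sos (-0.69) fell, while the adaptor gene drk (0.84) and the oocyte ligand gene grk (0.74) rose.

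Of 14 Notch pathway genes, 5 were lower (35.7%, against 19.1% of all genes) and 2 higher (14.3%, against 17.4%). The lower count was 1 without GOF replicate 2 or LOF replicate 1, 2 without LOF replicate 3 or after cyclic loess, and 3 without GOF replicate 3, without LOF replicate 2 or with all 9 arrays in the fit. The higher ones were the repressor genes H (2.06) and gro (1.90), each on its brighter probe set. The other set of each fell, by 0.82 for H and 0.37 for gro on the log2 scale, and both sets of each were called over probe sets. numb (-0.59) and E(spl)mbeta-HLH (-0.43) were lower, and the call of E(spl)mbeta-HLH was lost under 5 alternatives, with an adjusted p of up to 0.0992. Of 7 JAK-STAT genes, 3 were higher and the other 4 not called: Stat92E, the transcription factor gene, read 10354, 14550 and 20731 in GOF, against 6088, 5182 and 5703 in LOF (1.37, SE 0.22, adjusted p = 0.0012), dome, the receptor gene, rose by 0.68, and Ptp61F, a phosphatase gene, by 1.21 on its brighter set. The ligand gene upd1 was not called (-0.26).

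Of 22 ecdysone genes, 12 were lower (54.5%) and ftz-f1 alone was higher. Hr3 (-1.60) and Hr39 (-1.20), nuclear receptor genes of the hormone's cascade, fell with ImpE2, and Hr3 rested on its brighter set. Of 13 immune genes, 5 were higher and 2 lower. The higher count stayed at 5 when 1 array was left out. It was 2 when the dimmest 40% of all genes were dropped, a filter that can also remove list members from the test. key, an adaptor of the Imd pathway, read 1383, 1626 and 1630 in GOF, against 379, 396 and 532 in LOF (1.84, SE 0.14, adjusted p = 2.47e-05), spz, the Toll ligand gene, 433, 469 and 959 in GOF, against 206, 214 and 147 in LOF (1.63), and Mtk, an antimicrobial peptide gene, rose by 0.70, while SPE, the protease that activates Spätzle, fell by 0.79 on the log2 scale. Of 10 serpins, 3 were higher (30%, against 17.4% of all genes), with Spn88Ea (1.18) and Spn27A (0.82) among them. The 2 lower ones, Spn100A (-1.26) and Spn43Aa (-1.06), made up 20%, near the 19.1% of all genes, and 4 were lower without LOF replicate 3 or after quantile normalization. Of 9 genes of dosage compensation and sex, msl-1 (1.97), msl-3 (0.93) and mof (0.76), subunit genes of the complex on the male X, were higher, and Sxl, which represses the complex in females, read 4193, 4228 and 2543 in GOF, against 6434, 10440 and 10101 in LOF (-1.30). msl-2 was the other lower one (-0.62). The sex of the embryos is not listed for either group, and its part in these differences was not tested.

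Genes of protein synthesis and energy supply were described by 4 lists. Of 31 cytosolic ribosomal protein genes, 12 were higher (38.7%) and 1 lower, with a median of 0.30. RpL29 read 332396, 323930 and 336440 in GOF, against 180309, 154494 and 182356 in LOF (0.94, SE 0.093, adjusted p = 8.85e-05). The higher count was 6 without LOF replicate 1 and 5 without LOF replicate 2. Of 64 mitochondrial ribosomal protein genes, 18 were higher (28.1%, against 17.4% of all genes) and 8 lower (12.5%, against 19.1%). The largest rise was in mRpS9, which read 4499, 4670 and 5408 in GOF, against 1257, 1066 and 1119 in LOF (2.08, SE 0.11, adjusted p = 2.82e-06). Of 63 oxidative phosphorylation genes, 15 were higher (23.8%, against 17.4%) and 8 lower (12.7%, against 19.1%), led by ND-13A (1.09). The lower oxidative count was 5, 3, 4 and 2 without GOF replicate 1, GOF replicate 2, LOF replicate 1 and LOF replicate 3. The lower mitochondrial ribosomal count was 5 after cyclic loess. The median was 0.087 in the mitochondrial ribosomal list and 0.036 in the oxidative one, and both fell below 0 without LOF replicate 2, the oxidative one also without GOF replicate 1 (lowest medians -0.029 and -0.025). Of 29 vacuolar proton pump genes, 7 were higher (24.1%) and 6 lower (20.7%), shares near the 17.4% and 19.1% of all genes. VhaM9.7-b rose by 1.18 and Vha26 by 0.63.

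**Figure D5:**
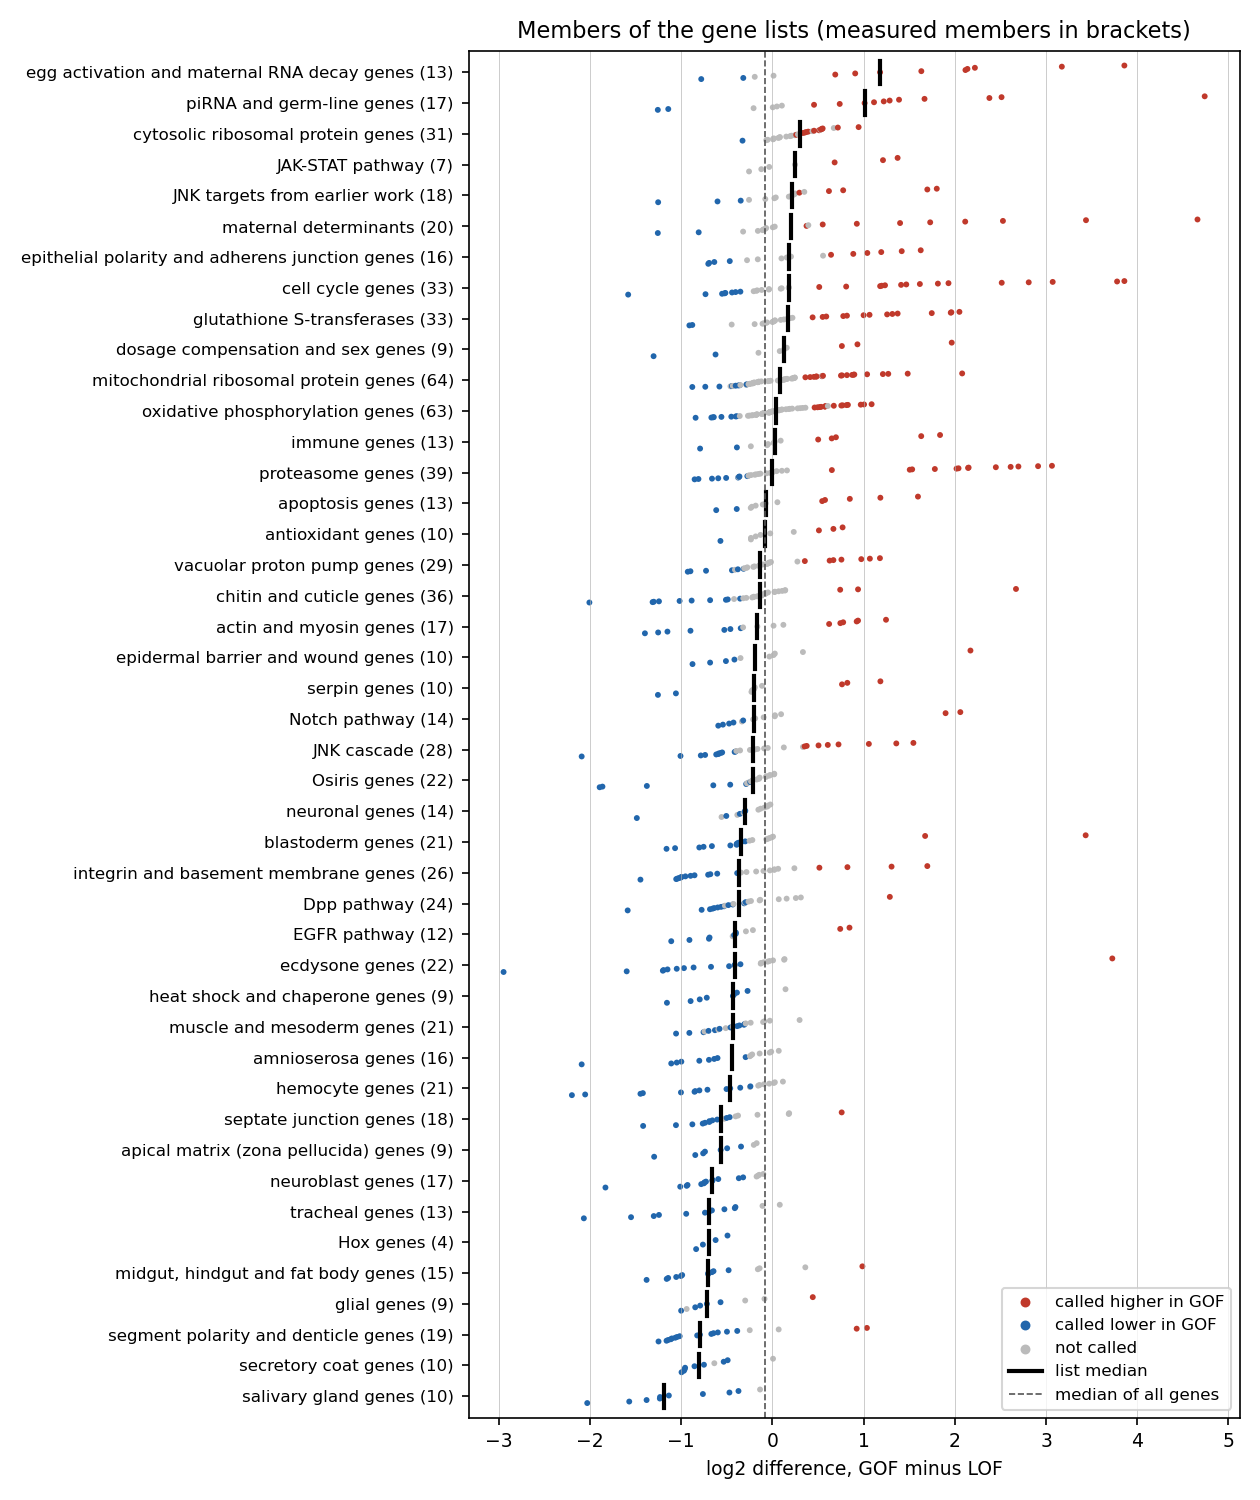
Log2 difference, GOF minus LOF, of each measured member of 44 gene lists (rows, measured members in brackets), with called higher members in red, called lower in blue, members not called in grey, list medians as black bars and the median of all genes as a dashed line at -0.077. Medians run from 1.18 for egg activation genes at the top to -1.18 for salivary gland genes at the bottom, and the proteasome row holds the core subunit genes, from 0.65 to 3.07, apart from most other members near 0.

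The WT arrays, which the differences above did not use, were set on the span between the groups. Rises and falls above are stated for GOF relative to LOF, not relative to WT. Among the 1889 higher genes, the WT mean lay nearer to LOF than to GOF for 1639 (86.8%), and among the 2067 lower genes for 1708 (82.6%). The WT mean lay between those of GOF and LOF for 63.4% of the higher and 59.5% of the lower genes. The median distance from LOF to WT was 10.3% of the span for higher and 11.9% for lower genes, and among genes at least 2-fold lower it was 20.8%. puc followed this order, at 2550, 2016 and 2347 in WT, which is above LOF and far below GOF. scb stood further along the span, at 277, 412 and 402 in WT. Among the largest falls, Pxn at 3507, 2968 and 3853 and zfh1 at 3716, 4570 and 6149 in WT lay apart from both groups. On the log2 scale both WT means were nearer to GOF than to LOF. WT minus LOF was -1.48 for Pxn and -1.16 for zfh1, and GOF minus WT was -0.72 and -0.89. vvl spread over the span, at 2961, 2725 and 7170 in WT, whereas Papss, at 19098, 26345 and 20104 in WT, lay at the LOF level. Some lower genes lay at the GOF level in WT, among them slpr, dpy and sls. Their means were 1321, 2834 and 1070 in GOF, and 1323, 2876 and 1038 in WT. In LOF they were 1983, 4788 and 1737.

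A few genes were not called between GOF and LOF although both lay far from WT. Tektin-C, a structural gene of cilia and flagella, read 88, 97 and 104 in GOF, against 116, 102 and 121 in LOF, and 1158, 997 and 1324 in WT. mTerf3, a mitochondrial transcription regulator gene, read 193, 192 and 215 in GOF, against 178, 183 and 165 in LOF, and 943, 882 and 778 in WT. eIF4E3, a translation initiation factor gene, read 226, 209 and 202 in GOF, against 251, 269 and 225 in LOF, and 881, 668 and 649 in WT. For these 3 genes every WT array lay above every GOF and LOF array. The GOF and LOF arrays overlapped for Tektin-C and eIF4E3, and the GOF arrays of mTerf3 lay above its LOF arrays without a call (adjusted p = 0.138). Ssdp read 4594, 5168 and 12261 in GOF, against 7532, 6166 and 7360 in LOF, and 1418, 1537 and 5021 in WT, with a wide spread in GOF. Without GOF replicate 3, Ssdp was called lower by 0.52 on the log2 scale (adjusted p = 0.0079).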

How the data were processed

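Total RNA of 9 whole-embryo samples was hybridised to 1-colour Affymetrix arrays. The authors made the deposited intensities with RMA, per the submitters' processing notes. No version or setting of RMA was found in the labels. This method corrects background, equalises the array distributions and summarises probes, so differences that affect the total RNA of an embryo are not seen. The base with which they were returned to a linear scale is unknown. No scanner detection calls were used, and 3 arrays per group limit the precision.

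From these, log2(value + 1) was taken for the 3 GOF and 3 LOF arrays. limma 3.58.1 in R 4.3.3 fitted 1 mean per group (lmFit, then eBayes), which left 4 residual degrees of freedom and added 4.49 from the prior, with two-sided tests and Benjamini-Hochberg adjustment over 10844 genes at 0.05 and no filter on low values. The median SE was 0.10. Tested on simulated data with these means and spreads, the fit called 50% of the genes given a log2 change of 0.5, 89.6% of those given 1 and 97% of those given 2. Unchanged genes made up 2.47% of its calls. The simulation changed only 66, 67 and 67 of 10844 genes by 0.5, 1 and 2, with independent normal noise. In the real data 36.5% of genes were called, so the simulated shares need not hold there. No per-sample column was left aside (0), and no arrays had identical values (0 pairs).

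The table held 14010 probe sets. Of these 12443 had 1 gene in the platform annotation, 327 several, 1196 none here and 44 were controls. Symbols were updated through gene numbers from the RefSeq table, and 45 were kept as annotated. Among 1209 genes with more than 1 probe set, 626 had a called set and 13 of them sets called in both directions. In text, "brighter" names the set that stood for the gene.

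The genes named were hep, puc, dpp, scaf, w and y, the 12 largest differences each way among called genes with groups apart, the 2 largest each way with only a CG or CR number, the 4 members of each of 44 lists with the smallest p, the 4 called genes with the smallest p each way, and the 4 uncalled genes farthest from WT in both groups. Of the 12 largest rises, 1 is not reported here. Other genes were added after their values were seen. The comparison, the members and the lists were chosen with earlier results of these data known, so counts in lists are descriptions, and list members absent from the array annotation were not analysed here. The replicate numbers were checked for pairing between GOF and LOF. Deviations from the group means of same-numbered arrays correlated at -0.18, 0.046 and -0.034, and those of unlike-numbered arrays at -0.17 to 0.23. With 3 arrays per group this cannot decide whether the numbers pair the samples, and the main fit treated them as unpaired. Alternatives covered the arrays in the fit, each array left out, the replicate block, the pseudocount, 2 scalings, a filter, the probe set, the variance prior and the base. A planned search of promoters for motifs was not run, since no promoter sequences were used here.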

Additional observations from a re-analysis of the deposited data

How the results depend on the processing

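Under 16 alternatives the number of higher genes stayed between 1570 and 2149 (1889 as reported) and of lower genes between 1439 and 2131 (2067 as reported). The range ran from 1646 to 1881 higher and from 1625 to 2045 lower when 1 of the 6 arrays was left out, and from 749 to 887 and from 224 to 292 for 2-fold rises and falls. With the replicate block, 1819 were higher and 1861 lower, 812 and 250 of them 2-fold. When the dimmest 40% of genes were dropped, 1570 and 1784 of 6506 were called. Reading the values as base e cut the 2-fold genes to 381 higher and 54 lower. Of 187 called genes named by the rule, 163 kept call and direction under every alternative that tested them, 20 lost the call under at least 1 and, with the lowest probe set, H (-0.82), gro (-0.37), scrib (-0.64), Ptp61F (-0.33) and nub (0.13) turned sign. The cause was not tested. Among uncalled genes, hep ran from -0.10 to 0.0085 when an array was left out and was 0.061 after cyclic loess, and Ssdp, called lower without GOF replicate 3, ran from -0.52 to 0.19 and was 0.0040 after cyclic loess. Of 94 list counts, 64 stayed within 1.5 times of their value under all alternatives, and the others include counts of 1 or 2 genes, such as lower apoptosis and egg activation genes (2, and 1 under several alternatives). The proteasome list had a median of -0.0064, which was 0.031 after cyclic loess and 0.016 after quantile normalization and also turned without GOF replicate 3. Apoptosis genes had a median of -0.075, and 0.063 after cyclic loess. The share of called genes was smaller among dim genes, and the part of signal over background in this was not tested.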

Other observations

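Probe sets with no gene name here were not part of any list. Of 1196 such sets, 160 were called higher in GOF than in LOF and 252 lower with limma over all probe sets. Of these, 63 and 45 were at least 2-fold. Among the 10844 genes, 17.4% were called higher and 19.1% lower. They are given as counts, since no gene can be named for them.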
